A study of Homo sapiens with 6 samples.

Results

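Non-homologous end joining is the main route by which human cells rejoin the ends of a broken chromosome, and it is the route open to neurons, which no longer divide. The genes described here are 9 members of that pathway, chosen by name with earlier results of these data known. They are XRCC5 and XRCC6, PRKDC, DCLRE1C, XRCC4, LIG4, NHEJ1, TP53BP1 and RIF1. All 9 were found among the 26372 gene symbols of the deposited table, and all 9 were among the 13263 genes tested, those with a mean of at least 1 FPKM. FPKM is a fragment count divided by gene length and by library size.

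The cells were SH-SY5Y, an established human neuroblastoma line with neuron-like features. They had been infected with lentivirus expressing a short hairpin RNA, either the control hairpin shNC or a hairpin against TDP-43 (shTDP43), and both populations had been selected in puromycin (2 µg/mL, 2 weeks). Each group had 3 libraries of poly(A) RNA, and the labels name no DNA-damaging agent. The labels describe 1 hairpin against TDP-43, no rescue, and no separate infections or cultures behind the 3 libraries, so the p-values cover no more than the spread among these 6 samples, and that spread may be technical. TDP-43, the protein of the TARDBP gene, binds RNA and DNA and has been described as a partner of the end joining machinery in neurons. The comparison asks whether RNA levels of that machinery differ in cells that carry the hairpin.

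In the pathway, the Ku heterodimer of XRCC6 (Ku70) and XRCC5 (Ku80) slides onto a broken end and recruits the kinase DNA-PKcs, the product of PRKDC. DNA-PKcs activates the nuclease Artemis, the product of DCLRE1C, which trims ends and opens hairpins, and the ends are sealed by DNA ligase IV (LIG4) with its scaffold XRCC4 and the bridging factor XLF (NHEJ1). 53BP1 (TP53BP1) and its effector RIF1 bind the chromatin around the break and hold back the resection that would commit it to homologous recombination.

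RNA of this machinery was little changed. XRCC5 rose by 9.36% and RIF1 by 6.06%, and the other 7 members did not pass the test. The RIF1 call held in 5 of 14 other settings. Estimates lay above 0 in 6 of 9 members, beside 6676 of 13263 tested genes, and below 0 in XRCC6, TP53BP1 and XRCC4. Counting both directions, 2 of 9 members (22.2%) passed a limma adjusted p under 0.05, against 38.1% of all tested genes, and 2 of 9 were higher against 18.5% of all tested genes. None passed as lower, against 19.6% of tested genes, and no further member had an unadjusted p under 0.05. The groups did not overlap in 3 members (XRCC5, PRKDC and RIF1), against 50.7% of tested genes. The median log2 difference of the members (shTDP43 minus shNC, on the log2(FPKM + 1) scale used throughout) was 0.06, beside 0.00 over all tested genes, and the largest in size was 0.13. For the 7 members that did not pass, the 95% intervals on this scale ran at their widest from 91.7% to 116% of control, so larger differences lay outside each member's interval.

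The libraries were checked on TARDBP, which had 56.1, 56.2 and 56.6 FPKM in shNC and 36.0, 33.1 and 34.8 FPKM in shTDP43. It fell to 61.5% of control (log2 difference -0.69, SE 0.03; limma adjusted p = 2.84e-06), with p = 0.1 by a two-sided exact permutation test, the floor of a design of 3 against 3 libraries. Markers of the noradrenergic neuroblastoma cell were present: 9 of 10 were tested, 6 were higher and 3 lower, and their summed level was between 1500.0 and 1508 FPKM in shNC and between 1703 and 1754 FPKM in shTDP43. TH, the tyrosine hydroxylase gene, was the exception, at no more than 0.207 FPKM in any library. Markers of the mesenchymal type of cell that the line can also hold fell in 7 of 8 tested members and rose in 1. The 7 that fell stood between 11.7% (COL3A1) and 66.0% (FN1) of control. The 1 that rose was TWIST1, from 184 to 267 FPKM, and as the highest of these markers it weighs most in their sum. That sum was between 498 and 505 FPKM in shNC and between 443 and 457 FPKM in shTDP43. PRRX1 was listed at 0 in 5 of the 6 libraries. Of 16 proliferation genes 4 were higher (MCM2, MCM6, MCM7 and RRM2) and 6 were lower (MKI67, TOP2A, CCNA2, CCNB1, CDK1 and BUB1). The sum of the 16 was between 979 and 983 FPKM in shNC and between 960 and 967 FPKM in shTDP43. The share called was 100% of tested noradrenergic markers, 100% of tested mesenchymal markers and 62.5% of proliferation genes, against 38.1% of all tested genes. A change in the mix of cells and a change of RNA per cell cannot be told apart in bulk RNA, and the part of these markers in the results below was not tested. Between 18217 and 18334 genes were above 0 in the shNC libraries and between 17945 and 18025 in the shTDP43 libraries. Relative depth, read from the steps of the lowest values, was 1.16 to 1.27 for shNC and 1 to 1.12 for shTDP43, and the absolute depth is unknown.

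Of the members, 5 start beside another gene on the opposite strand. With GENCODE v29 gene starts and a window of 1000 bases, 55.6% of the members had a protein-coding gene starting on the other strand, against 17.9% of 11605 tested protein-coding genes. The starts lay 2 bases apart for PRKDC and MCM4, 11 for LIG4 and ABHD13, 23 for XRCC6 and DESI1, 230 for TP53BP1 and MAP1A, and 365 for XRCC4 and TMEM167A. The start regions of 4 of them are shown because their pairs are compared further on, and that of RIF1 because it is the member past the test for which a sequence was at hand. RefSeq sequences matched 7 of 9 members. Each runs from 250 bases before to 50 after the RefSeq start (build GRCh38.p14, 5′ to 3′ on the gene's strand, for LIG4 the most upstream of 5 starts). Capitals mark matches, on either strand, to 6 short motifs: GGGCGG (the GC box bound by SP1), CCAAT (bound by NF-Y), GCATGCGC (part of the NRF1 site), TGACGT (part of the cyclic AMP response element), GCCATCTT (the YY1 core) and ACTTCCGG (an ETS factor site). No matches overlap in these sequences.
XRCC6 (chr22:41621045-41621344, plus strand): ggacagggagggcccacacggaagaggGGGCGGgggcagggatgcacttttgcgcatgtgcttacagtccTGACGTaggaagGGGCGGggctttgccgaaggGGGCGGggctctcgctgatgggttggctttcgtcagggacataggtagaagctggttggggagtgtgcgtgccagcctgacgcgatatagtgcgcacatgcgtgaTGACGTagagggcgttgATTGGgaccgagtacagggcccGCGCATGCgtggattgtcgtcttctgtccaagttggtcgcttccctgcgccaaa
XRCC4 (chr5:83077297-83077596, plus strand): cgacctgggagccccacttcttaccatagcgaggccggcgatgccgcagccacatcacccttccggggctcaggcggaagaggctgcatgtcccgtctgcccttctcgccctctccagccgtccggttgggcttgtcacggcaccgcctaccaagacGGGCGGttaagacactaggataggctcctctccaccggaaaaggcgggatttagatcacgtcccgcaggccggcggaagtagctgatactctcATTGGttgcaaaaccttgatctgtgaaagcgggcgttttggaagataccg
LIG4 (chr13:108218300-108218599, minus strand): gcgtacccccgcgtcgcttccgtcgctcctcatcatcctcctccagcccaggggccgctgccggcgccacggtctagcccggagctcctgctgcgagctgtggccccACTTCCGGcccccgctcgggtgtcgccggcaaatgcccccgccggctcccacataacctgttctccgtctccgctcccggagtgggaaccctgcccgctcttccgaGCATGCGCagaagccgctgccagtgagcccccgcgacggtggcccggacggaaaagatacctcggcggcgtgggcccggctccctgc
TP53BP1 (chr15:43510591-43510890, minus strand): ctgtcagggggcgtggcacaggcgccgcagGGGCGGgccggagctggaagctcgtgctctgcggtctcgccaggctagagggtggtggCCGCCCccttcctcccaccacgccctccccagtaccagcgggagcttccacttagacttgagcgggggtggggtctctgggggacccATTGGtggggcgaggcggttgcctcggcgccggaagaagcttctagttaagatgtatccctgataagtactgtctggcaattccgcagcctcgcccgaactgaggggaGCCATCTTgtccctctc
RIF1 (chr2:151409652-151409951, plus strand): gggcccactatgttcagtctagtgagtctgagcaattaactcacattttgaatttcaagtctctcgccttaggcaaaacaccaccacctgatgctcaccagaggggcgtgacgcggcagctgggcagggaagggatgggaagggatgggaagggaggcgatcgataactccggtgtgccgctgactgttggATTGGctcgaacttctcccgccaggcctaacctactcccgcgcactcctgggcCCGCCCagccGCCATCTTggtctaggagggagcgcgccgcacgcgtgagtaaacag

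Among 35116 RefSeq start regions of this length, GGGCGG was found in 45.0%, CCAAT in 34.6%, TGACGT in 7.98%, ACTTCCGG in 4.14%, GCATGCGC in 3.05% and GCCATCTT in 2.89%. These regions were not limited to tested genes, and a gene can have several, so they are not a matched background for the members. GCATGCGC was in the XRCC6 and LIG4 regions, and GCCATCTT was in those of both partners at break chromatin, TP53BP1 and RIF1. XRCC6 held 2 matches to TGACGT and 3 to GGGCGG, and LIG4 held 1 to ACTTCCGG and none to GGGCGG. In the XRCC4 region 1 match each to GGGCGG and CCAAT was found. These matches describe the letters only.

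Levels of the 9 genes per kilobase spanned a wide range. In shNC the order was XRCC5 (199.6 FPKM), PRKDC (84.4), XRCC6 (68.8), TP53BP1 (37.6), RIF1 (36.8), XRCC4 (11.6), NHEJ1 (10.4), DCLRE1C (8.66) and LIG4 (8.03 FPKM). The end sensors thus stood highest, the chromatin factors in the middle, and the ligation genes and the nuclease lowest. TP53BP1 and RIF1 overlapped between libraries and were not ordered beyond their spread, whereas every other pair of neighbours in this order was separated in the 3 shNC libraries. XRCC5 lay above 97.9% of tested genes in mean level, PRKDC above 94.9% and XRCC4 above 52.8%.

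**Figure D1:**
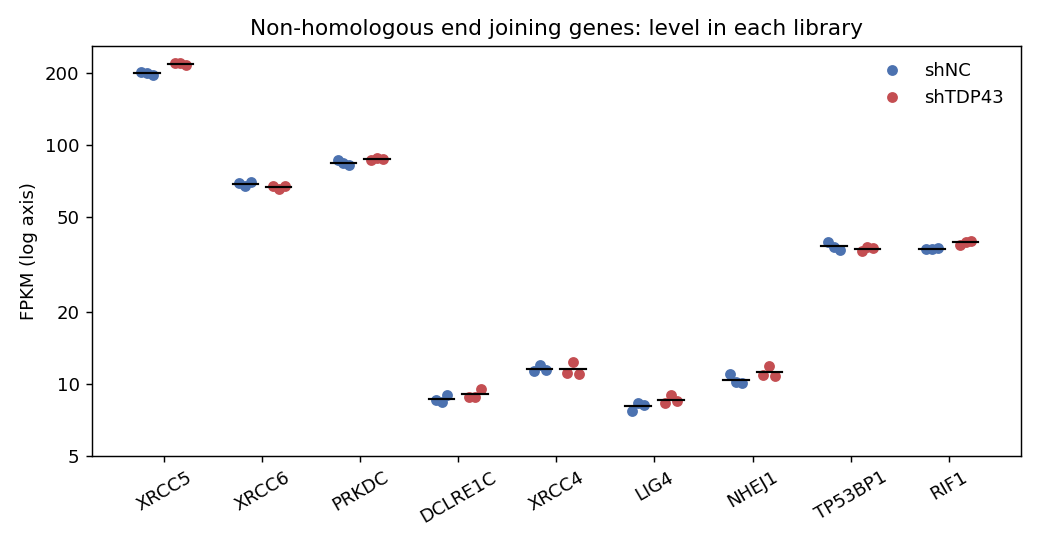
Level of each end joining gene in each library, in FPKM on a log axis. Points are libraries (3 per group) and black bars are group means. The genes run from XRCC5 at about 199.6 FPKM in shNC to LIG4 at 8.03, and the 2 groups lie close together for each gene.

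XRCC5 (GRCh38 chromosome 2, 216109348 to 216206293), the Ku80 subunit, showed the largest change of the 9. Its levels were 202.5, 199.2 and 197.1 FPKM in shNC and 219.7, 219.6 and 215.7 FPKM in shTDP43. Each shTDP43 library was above each shNC library. The means were 199.6 ± 2.71 and 218 ± 2.30 FPKM (SD, n = 3). The log2 difference was 0.13 (SE 0.02; 95% interval 0.08 to 0.18), at a limma adjusted p of 0.00215. It passed under each of 14 other settings (limma adjusted p = 0.00191 to 0.0190).

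XRCC6 (chromosome 22, 41621295 to 41664041), the Ku70 subunit that pairs with the XRCC5 product, had 69.2, 67.4 and 69.7 FPKM in shNC and 67.0, 65.2 and 67.6 FPKM in shTDP43. The groups overlapped, and the log2 difference was -0.05 (95% interval -0.10 to 0.01), at a limma adjusted p of 0.187. The ratio of XRCC5 to XRCC6 within a library was 2.93, 2.96 and 2.83 in shNC and 3.28, 3.37 and 3.19 in shTDP43. The ratio was higher in every shTDP43 library, at 3.28 ± 0.0895 against 2.90 ± 0.0658 (SD, n = 3; exact two-sided permutation p = 0.1, the smallest possible). It is 1 of 3 ratios chosen after their values were seen. How often ratios of other gene pairs separate the groups was not computed. Ku works as a dimer of 1 subunit each, and the RNA ratio says nothing of the proteins, which were not analysed here. GENCODE names 5 pseudogenes for XRCC6, and the assignment of reads with several matches is not described, so its level is uncertain.

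PRKDC (chromosome 8, 47773111 to 47960136), the DNA-PKcs gene, had 86.7, 83.8 and 82.5 FPKM in shNC and 86.8, 88.4 and 87.7 FPKM in shTDP43. The groups were separated only by the gap between 86.73 in shNC replicate 1 and 86.76 in shTDP43 replicate 1. The log2 difference was 0.05 (95% interval -0.0031 to 0.11; limma adjusted p = 0.121), and with quantile normalization it passed as higher (0.08; limma adjusted p = 0.0483).

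DCLRE1C (chromosome 10, 14897359 to 14954432), the gene of the nuclease Artemis that DNA-PKcs activates, had 8.58, 8.42 and 8.98 FPKM in shNC and 8.82, 8.82 and 9.55 FPKM in shTDP43. The highest library of both groups together was shTDP43 replicate 3, and the groups overlapped (log2 difference 0.06, 95% interval -0.05 to 0.17; limma adjusted p = 0.366). Exons of DCLRE1C overlap those of SUV39H2, a histone methyltransferase gene on the other strand that rose to 119.5% of control (limma adjusted p = 0.00209). The sources used here do not say whether strand was used in counting, so reads of such overlapping genes cannot be told apart. GENCODE also names 1 pseudogene for DCLRE1C, which adds to the uncertainty of its level.

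**Figure D2:**
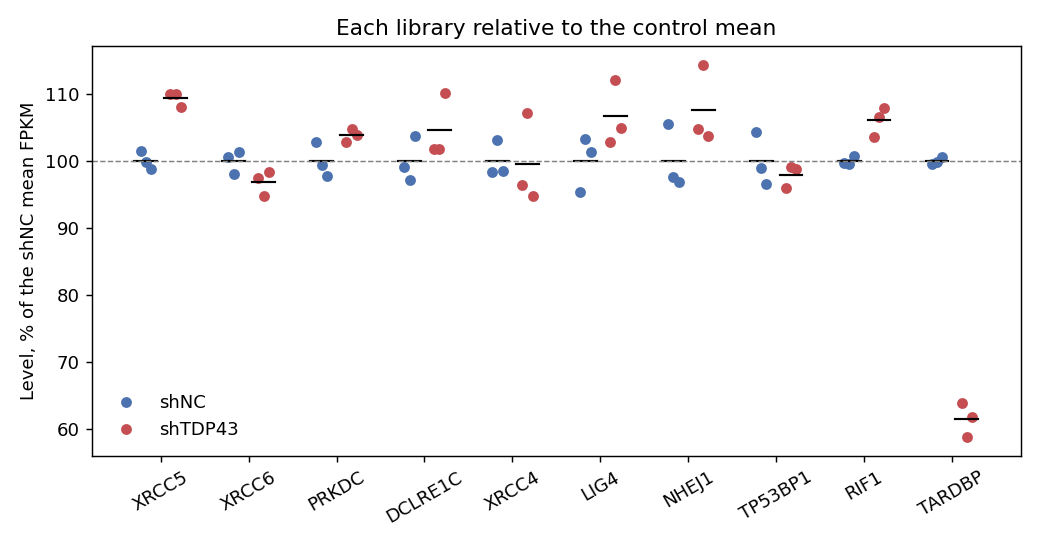
Each library as a percentage of the shNC mean FPKM of the gene, for the 9 end joining genes and TARDBP. Points are libraries (3 per group) and black bars are group means. XRCC5 and RIF1 sit at 109% and 106% of control in shTDP43 with no overlap, whereas TARDBP sits at 61.5%.

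The ligation genes did not pass the test. XRCC4 (chromosome 5, 83077547 to 83374473), the scaffold of the ligase, had 11.4, 11.9 and 11.4 FPKM in shNC and 11.1, 12.4 and 10.95 FPKM in shTDP43. Its shTDP43 libraries included both the highest and the lowest value of the 6, and the log2 difference was -0.01 (95% interval -0.13 to 0.11; limma adjusted p = 0.914). LIG4 (chromosome 13, 108207442 to 108218349), the ligase itself, had 7.67, 8.29 and 8.14 FPKM in shNC and 8.27, 9.01 and 8.43 FPKM in shTDP43. The groups met at 8.29 and 8.27 FPKM (log2 difference 0.08, 95% interval -0.03 to 0.20; limma adjusted p = 0.219).

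NHEJ1 (chromosome 2, 219069357 to 219160815), the XLF gene, had 10.96, 10.1 and 10.1 FPKM in shNC and 10.9, 11.9 and 10.8 FPKM in shTDP43. shNC replicate 1 lay within the shTDP43 range (log2 difference 0.10, 95% interval -0.02 to 0.21; limma adjusted p = 0.172). In XRCC4, LIG4 and NHEJ1 alike the highest value of all 6 libraries was that of shTDP43 replicate 2. The ratio of XRCC4 to LIG4 was 1.48, 1.44 and 1.40 in shNC and 1.35, 1.38 and 1.30 in shTDP43. It was lower in each shTDP43 library (exact two-sided permutation p = 0.1, the smallest possible). Exons of NHEJ1 overlap another annotated gene that was not analysed here, which leaves its level uncertain.

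TP53BP1 (chromosome 15, 43403061 to 43510640), the 53BP1 gene, had 39.3, 37.2 and 36.3 FPKM in shNC and 36.1, 37.3 and 37.1 FPKM in shTDP43. The shTDP43 libraries lay within or just under the shNC range (log2 difference -0.03, 95% interval -0.11 to 0.05; limma adjusted p = 0.534). Its exons overlap those of TUBGCP4 on the other strand, which stood at 99.8% of control.

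RIF1 (chromosome 2, 151409902 to 151534435), the effector that acts downstream of 53BP1, had 36.7, 36.7 and 37.1 FPKM in shNC and 38.2, 39.2 and 39.8 FPKM in shTDP43. Each shTDP43 library was above each shNC library, and the means were 36.8 ± 0.252 and 39.1 ± 0.811 FPKM (SD, n = 3). The log2 difference was 0.08 (SE 0.03, 95% interval 0.02 to 0.14; limma adjusted p = 0.0358). The call was lost without any 1 of shNC replicates 1, 2 and 3 or shTDP43 replicates 2 and 3 (limma adjusted p = 0.0645 to 0.107). It was lost without shNC replicate 1 and shTDP43 replicate 3 together (limma adjusted p = 0.195) and with quantile normalization (0.0660). Without a variance trend (limma adjusted p = 0.0850) or with replicate number as a block (0.0640) it was lost too. The difference remained 0.07 or more. NEB, whose exons overlap those of RIF1, was at no more than 0.0670 FPKM in any library. The ratio of TP53BP1 to RIF1 was 1.07, 1.02 and 0.979 in shNC and 0.946, 0.949 and 0.934 in shTDP43, lower in each shTDP43 library (exact two-sided permutation p = 0.1). The 3 ratios were chosen after their values were seen, and adjusted over the 3 each has a Benjamini-Hochberg p of 0.1.

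Of the 5 genes that start beside members, 2 passed as higher, ABHD13 and TMEM167A. Among all tested genes 18.5% were higher and 38.1% were called in either direction. ABHD13, a hydrolase-domain gene starting 11 bases from LIG4, had 9.36, 9.33 and 9.25 FPKM in shNC and 10.5, 11.4 and 11.1 FPKM in shTDP43. It rose to 118% of control (log2 difference 0.22, SE 0.04; limma adjusted p = 0.00461), beside 107% for LIG4. TMEM167A, a gene of a small membrane protein that starts beside XRCC4, had 32.8 ± 0.555 FPKM in shNC and rose to 35.9 ± 0.648 FPKM in shTDP43 (limma adjusted p = 0.00700; SD, n = 3), beside 99.5% of control for XRCC4. MCM4, a subunit of the replicative helicase beside PRKDC, stood at 102% of control, MAP1A, a microtubule-binding protein gene beside TP53BP1, at 100.1%, and DESI1, a peptidase gene beside XRCC6, at 110.1%. None of these 3 passed (limma adjusted p = 0.495, 0.983 and 0.169). Whether a pair's 2 changes differ was not tested, and the 95% intervals overlapped in each pair.

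**Figure D3:**
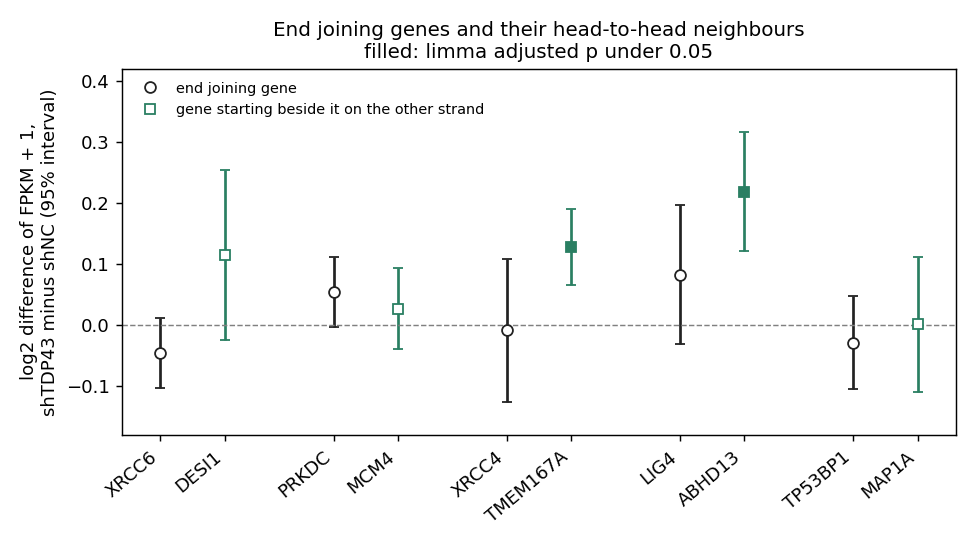
Log2 difference (shTDP43 minus shNC, FPKM + 1) of 5 end joining genes and of the gene that starts beside each on the other strand. Bars are 95% intervals over 3 libraries per group, and filled symbols passed a limma adjusted p under 0.05. TMEM167A and ABHD13 passed as higher, and their partners XRCC4 and LIG4 did not pass.

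TDP-43 binds stretches of alternating G and U in RNA, so the longest GENCODE v29 transcript of each gene was searched for GTGTGT on the transcript's own strand. At least 1 match was found in 5 of 9 members (55.6%), against 61.9% of 12437 tested genes with a transcript. Overlapping matches were counted separately, so 1 stretch can hold several and the counts are not numbers of separate sites. TP53BP1 held 10 matches in 10384 bases, RIF1 held 2 in 15003, and XRCC6, PRKDC and NHEJ1 held 1 each. XRCC5, with the largest change, held none, and neither did XRCC4, LIG4 or DCLRE1C. The median was 0.0740 matches per kilobase among members and 0.263 among those genes. Introns, where many TDP-43 sites lie, were not searched.

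Accessory factors of the pathway comprise end processing enzymes, gap-filling polymerases and small Ku-binding proteins, and 2 of 10 tested were higher and none lower (median log2 difference 0.00). The share higher was close to the 18.5% of all tested genes, of which a further 19.6% were lower. The share called in either direction was 20%, against 38.1% of all tested genes. TDP2, a phosphodiesterase that frees ends from trapped topoisomerase II, had 18.1, 19.7 and 18.4 FPKM in shNC and 20.7, 22.6 and 20.6 FPKM in shTDP43, 114% of control (log2 difference 0.17, SE 0.05; limma adjusted p = 0.0197). C7orf49, now named CYREN, encodes a small protein that binds Ku and restrains end joining outside G1, and rose to 107% of control (limma adjusted p = 0.0231). TDP2 did not pass when shNC replicate 1 or 3 or shTDP43 replicate 2 was left out (limma adjusted p = 0.0540 to 0.0652), and C7orf49 did not pass when shNC replicate 2 or 3 or shTDP43 replicate 1 or 3 was left out (0.0630 to 0.0714) or without a variance trend (0.0554). Without shNC replicate 1 and shTDP43 replicate 3 together neither passed (limma adjusted p = 0.0782 and 0.109). The remaining tested genes were C9orf142 (PAXX), APLF, APTX, POLL, POLM, TDP1, WRN and IFFO1, between 82.1% (POLL) and 117% (APLF) of control. DNTT, the polymerase of lymphocyte gene rearrangement, was listed at 0 in 5 of 6 libraries and was not tested.

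Genes that signal a break or act with 53BP1 held the largest change among the members and the 3 related lists as reported here. In that list 3 of 11 tested genes were higher and 1 was lower (median 0.03), and SHLD3 was not matched in the table. The share called, 36.4%, was close to the 38.1% of all tested genes. PAXIP1, whose product PTIP binds phosphorylated 53BP1 and acts in parallel to RIF1, had 5.77, 5.87 and 5.85 FPKM in shNC and 9.04, 9.21 and 8.98 FPKM in shTDP43. It rose to 156% of control, and passed under each of 14 other settings (log2 difference 0.56, SE 0.04, 95% interval 0.47 to 0.65; limma adjusted p = 3.08e-05). PAXIP1-AS1, which starts 364 bases away on the other strand, stood at 128% of control (limma adjusted p = 0.0123), and PAXIP1-AS2, which overlaps exons of PAXIP1, had 0.638 ± 0.0852 FPKM in shNC and 0.640 ± 0.196 FPKM in shTDP43 (SD, n = 3).

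MDC1, the scaffold that reads phosphorylated histone H2AX, rose from 15.7 ± 0.167 to 18.3 ± 0.161 FPKM (SD, n = 3; 117% of control; limma adjusted p = 0.000997). H2AFX, the gene of that histone, rose to 112% (limma adjusted p = 0.00482) and is named here after its values were seen. MAD2L2, the REV7 subunit of shieldin, had 24.3 ± 0.569 FPKM in shNC and fell to 22.1 ± 1.06 FPKM in shTDP43, or 91.1% of control (limma adjusted p = 0.0323). MAD2L2 did not pass when replicate 1 or 3 of either group was left out (limma adjusted p = 0.0809 to 0.0954). Nor did it pass without a filter on low values (limma adjusted p = 0.0543) or without a variance trend (0.0609). It also failed with replicate number as a block (limma adjusted p = 0.0619) and without shNC replicate 1 and shTDP43 replicate 3 together (0.162). The shieldin gene FAM35A (SHLD2) stood at 98.0% of control, and ATM, the kinase that phosphorylates H2AX and 53BP1, at 99.8% (limma adjusted p = 0.538 and 0.949). RNF8, RNF168, NUDT16L1, DYNLL1 and C20orf196 (SHLD1) did not pass and stood between 100.3% and 109% of control.

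Genes of alternative end joining and of the resection that precedes it passed as higher in 2 of 10 tested genes, again close to the background of 18.5%. None passed as lower (median 0.04), against 19.6% of all tested genes. The share called in either direction was 20%, against 38.1%. PARP1, which senses breaks and competes with Ku for ends, had 124.9, 123.8 and 120.5 FPKM in shNC and 142.2, 144.9 and 138.7 FPKM in shTDP43. It rose to 115% of control (log2 difference 0.20, SE 0.03; limma adjusted p = 0.000517). FEN1, the flap endonuclease, rose from 39.3 ± 1.15 to 44.3 ± 0.151 FPKM (SD, n = 3; 113% of control; limma adjusted p = 0.00214). POLQ, the polymerase that defines the alternative route, stood at 106% (limma adjusted p = 0.162), and LIG3, XRCC1, MRE11A, RAD50, NBN, RBBP8 and LIG1 stood between 97.5% and 104% of control.

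**Figure D4:**
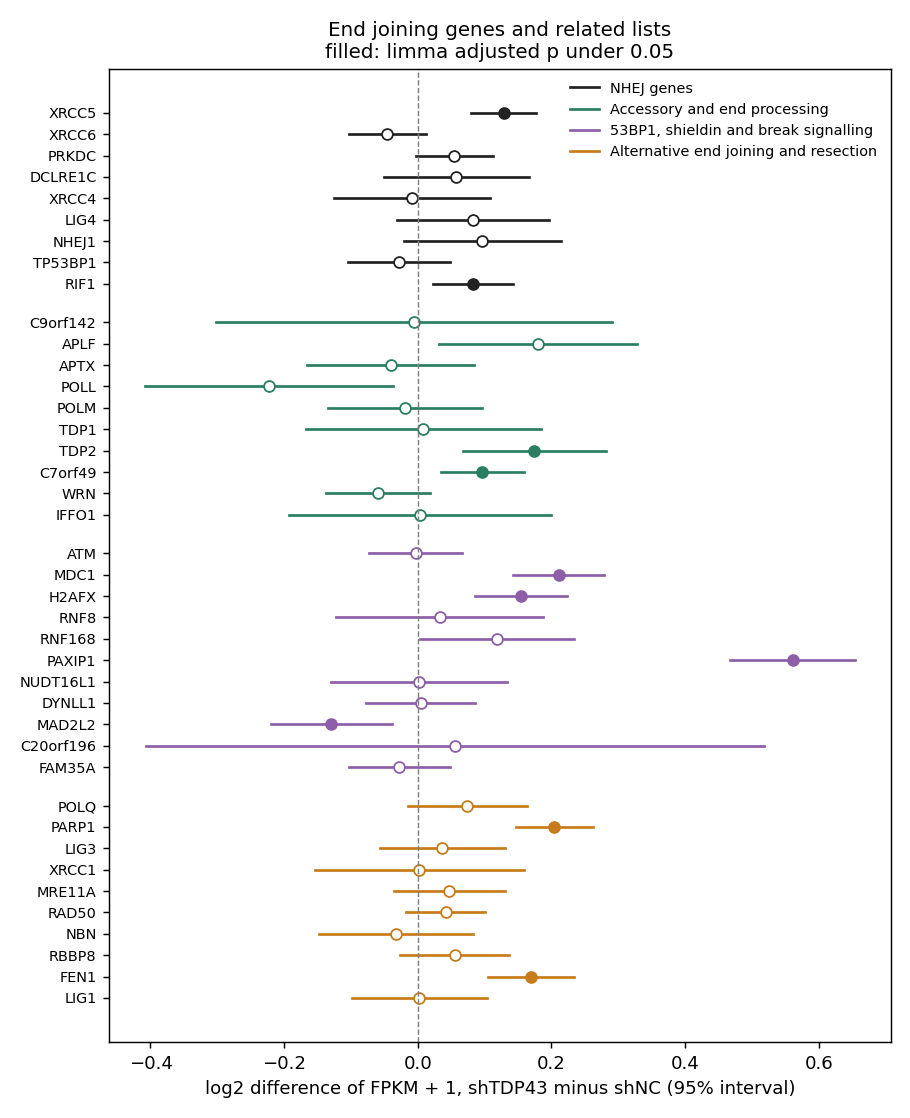
Log2 difference (shTDP43 minus shNC, FPKM + 1) with its 95% interval for the 9 end joining genes and the tested members of 3 related lists. Filled points passed a limma adjusted p under 0.05. PAXIP1 at 0.56 stands farthest from 0, and the end joining genes all lie within 0.13 of it.

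Among 39 other tested genes of the pathway and these lists, the profiles most like that of XRCC5 over the 6 libraries were those of C7orf49, POLQ and RIF1. Likeness was the root mean square difference of values as percentages of the shNC mean, which was 2.33, 2.70 and 3.16 percentage points. It measures a like size of change, in libraries shared by all these genes.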

How the data were processed

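The authors deposited FPKM values per gene symbol for 6 libraries. Per the submitters' processing notes, the tools were TopHat2 2.1.0, SAMtools and Cuffdiff 2.2.1, with build hg38. Not given in the sources used here are the annotation, strand use, the handling of multiply matching reads and how libraries were scaled. Without counts, no count model was used and the depth is unknown.

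Values were analysed as log2(FPKM + 1) with limma 3.58.1 in R 4.3.3. The 13263 of 26372 genes whose mean reached 1 FPKM were fitted with group as the only term and a variance trend, two-sided, with Benjamini-Hochberg adjustment over all tested genes. This scale understates changes of low genes, so percentages of control are ratios of mean FPKM. The test was also run on simulated data with independent values and far fewer changed genes. That run therefore gives no support to the calls made here. Exact permutation tests used SciPy 1.17.1.

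One gene of the accessory list is not reported here. The members and lists were chosen with earlier results of these data known. Named genes were TARDBP, the members, up to 2 rises and 2 falls past the test in each of 3 related lists, and the 3 genes most like the member with the largest change. Alternatives were another pseudocount, filter, scaling or variance model, a replicate block, and leaving out libraries. Locations come from RefSeq (GRCh38.p14), and overlaps from GENCODE v29 (GRCh38, as hg38).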

Additional observations from a re-analysis of the deposited data

How the results depend on the processing

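The number of end joining genes higher in shTDP43, 2 as reported, was 1 (XRCC5) with the replicate block, without a variance trend and without the pair of libraries in which SNORD3A, a small nucleolar RNA, was lowest (shTDP43 replicate 3 and shNC replicate 1), and between 1 and 2 without each library in turn. Quantile normalization also gave 2, XRCC5 and PRKDC. The number lower was 0 in all 14 alternatives, and the median log2 difference ran from 0.05 to 0.08. SNORD3A stood at 11541 FPKM in shNC replicate 1 and 8551 FPKM in shTDP43 replicate 3. In the other libraries it lay between 137209 and 552747 FPKM. The FPKM of all genes summed to between 908329 and 1592930 per library. Without the SNORD3A-low pair 3323 genes were called in all, against 5054, and 0 accessory genes were higher, against 2. Fewer samples enter such fits. Without each library in turn between 0 and 1 accessory genes were higher and between 0 and 1 lower. The 1 gene lower among the 53BP1 and break signalling genes (MAD2L2) became 0 without a filter on low values, with the replicate block, without a variance trend and without the SNORD3A-low pair, and ranged from 0 to 1 without each library in turn. Apart from the fits with fewer samples, the cause was not tested. The labels state no pairing by replicate number. Same-numbered deviations correlated at -0.0683, 0.0644 and 0.112, and not every sample correlated best with its own number. Such weak values show no pairing, but cannot tell whether same-numbered libraries were handled together. The replicate block gave 4502 calls.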
